A study of Mus musculus with 12 samples.

Results

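Adh1, Aox3 and Rdh10 encode enzymes that oxidise retinol, retinal and other alcohols and aldehydes, and they were followed here in RNA and in ribosome footprints of the mouse mammary gland. They are 3 of the 7318 genes counted in the study, and all 3 were counted in each of the 12 libraries. They were picked by name with their response in these data already known, so their responses to treatment are described below without a test. The mice were 4-week-old FVB/N females of the genotype MMTV-Wnt1 / MMTV-iFgfr1, so every group carried both transgenes, each driven by the mouse mammary tumour virus promoter, which is mainly active in mammary epithelium. iFGFR1 is a form of fibroblast growth factor receptor 1 that signals when the drug AP20187 joins its copies, and mice were injected intraperitoneally with vehicle or AP20187 6 h before the glands were taken. The design asks what adding FGFR1 signalling to WNT signalling does to transcripts and to their translation. No mice lacking the inducible receptor received AP20187, so an effect of the drug itself and one of the receptor cannot be told apart. Mammary glands 3 to 5 were digested for 2 h with collagenase in 100 µg/ml cycloheximide, which holds ribosomes on their mRNAs, and epithelial cells were enriched by brief spins with no sort. Each cell pellet gave a poly(A) RNA library and a library of ribosome-protected fragments (footprints), which made 4 groups of 3 libraries: RNA and footprints, each after vehicle and after AP20187. The labels do not say whether a pellet came from 1 mouse or from several, so a p-value here covers no more than the differences among these samples, part of which may be technical.

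Vitamin A reaches cells as retinol bound to a carrier protein, or as retinyl esters carried in lipoproteins. Alcohol dehydrogenases and membrane-bound retinol dehydrogenases oxidise retinol to retinal, and retinal is then oxidised irreversibly to retinoic acid, mainly by aldehyde dehydrogenases of the Aldh1a group and, less, by aldehyde oxidases. Retinoic acid binds nuclear receptors of the RAR family, which pair with RXR partners on DNA, and cytochrome P450 enzymes clear it. In the mammary gland, retinoids are stored partly in fat and are known for restraining growth and promoting differentiation of the epithelium.

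Adh1 encodes the class I alcohol dehydrogenase, a cytosolic zinc enzyme that oxidises ethanol and retinol. In build GRCm38 with the GENCODE annotation, the gene (ENSMUSG00000074207.10) lies on the plus strand of chromosome 3 from 138260991 to 138290698, and its main transcript has 9 exons, 1492 bases and a coding sequence of 1125 bases. It overlaps Gm16559, an antisense gene on the minus strand. Whether the counting used strand is not given in the sources used here, so reads of Adh1 and of this neighbour cannot be told apart. Aox3 encodes an aldehyde oxidase, a cytosolic enzyme that carries a molybdenum cofactor and oxidises a wide range of aldehydes to acids. It (ENSMUSG00000064294.12) lies on the plus strand of chromosome 1 from 58113130 to 58200698, with 35 exons, a transcript of 4606 bases and a coding sequence of 4005 bases, and a small nucleolar RNA gene, Gm24548, lies within its span on the minus strand. Rdh10 encodes a membrane-bound retinol dehydrogenase that supplies retinal for retinoic acid synthesis and is essential for that step in the embryo. It (ENSMUSG00000025921.7) lies on the plus strand of chromosome 1 from 16105774 to 16133734, overlaps no other annotated gene, and has 6 exons in a transcript of 3587 bases.

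The 3 transcripts differ in how much of them is translated. The coding sequence made up 75.4% of the Adh1 transcript, 87.0% of the Aox3 transcript and 28.5% of the Rdh10 transcript, against a median of 57.2% over the 7134 listed genes with a value. The 3′ untranslated region of Rdh10 was 2320 bases long, against 142 bases in Adh1 and 478 in Aox3. Since footprints come from coding sequence and RNA reads from the whole transcript, the surroundings of the start codon are shown for each transcript as 30 bases of GRCm38, 5′ to 3′, with the start codon in capitals.
Adh1: acagacggcATGagcactgcgggaaaagtg
Aox3: cctcaagtaATGtctccttctaaggagtca
Rdh10: ggcgtcgcgATGaacatcgtagtggagttc
The base 3 positions before the start codon was G in all 3 transcripts, and the base after it was A in Adh1 and Rdh10 and T in Aox3. The 5′ leader was 225 bases long in Adh1, 123 in Aox3 and 244 in Rdh10. Before the start codon, the leader of Adh1 held 2 ATG triplets and those of Aox3 and Rdh10 held 0.

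Adh1 and Aox3 had the most similar RNA profiles among the 3 genes, so their promoters are shown together, as 250 bases before to 50 bases after the transcription start in RefSeq annotation of GRCm38.p6, plus strand, 5′ to 3′. RefSeq promoters were matched for 2 of the 3 genes, Adh1 at chr3:138277335-138277634 and Aox3 at chr1:58112886-58113185. The Adh1 window lies inside the GENCODE gene span, downstream of its first base at 138260991, while the Aox3 window covers the first base of its span. Positions below are relative to the RefSeq start. Capitals mark the matches to the 6 motifs searched on both strands.
Adh1: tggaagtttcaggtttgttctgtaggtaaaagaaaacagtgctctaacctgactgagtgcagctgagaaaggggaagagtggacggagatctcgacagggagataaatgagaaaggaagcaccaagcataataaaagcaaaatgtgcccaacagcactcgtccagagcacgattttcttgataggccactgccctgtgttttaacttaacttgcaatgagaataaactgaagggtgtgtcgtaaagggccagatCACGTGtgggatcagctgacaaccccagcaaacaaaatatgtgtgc
Aox3: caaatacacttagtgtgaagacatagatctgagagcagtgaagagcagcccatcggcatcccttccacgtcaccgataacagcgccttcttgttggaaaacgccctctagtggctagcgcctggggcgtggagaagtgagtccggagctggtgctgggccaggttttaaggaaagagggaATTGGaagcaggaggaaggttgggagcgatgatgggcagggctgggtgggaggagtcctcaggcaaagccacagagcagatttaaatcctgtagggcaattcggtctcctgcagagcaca
The Adh1 window held CACGTG, the E-box palindrome, from 4 bases after the start, a sequence present in 7.15% of the 32851 mouse promoters of the same length. The Aox3 window held a CCAAT box on the minus strand, read here as ATTGG, 70 bases before the start, which 37.4% of promoters hold. Neither window held AGGTCA, the core of retinoid receptor sites (16.3% of promoters), TTGCNNAA, the C/EBP core (10.8%), the TATA box TATAAA (13.6%) or the GC box GGGCGG (35.7%). G and C made up 45.3% of the Adh1 window with 6 CpG and 55% of the Aox3 window with 10 CpG, beside medians of 52.7% and 7 CpG over all promoters.

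Over the 7318 genes, RNA libraries held 94513818 to 251874393 counts and footprint libraries 1772969 to 11018709. Levels are given as CPM, counts rescaled to a common library size by the TMM method within each assay, so each change is relative to the other genes. A count of 3 corresponded to 0.0121 to 0.0322 CPM in RNA and to 0.282 to 1.64 CPM in footprints. Such limits and the intervals given below for counts reflect counting error alone, as reads lacking molecular barcodes can be copies of 1 molecule. Fgfr1, whose counts can include the transgene, ranged from 268 to 366 CPM in RNA after vehicle and from 575 to 1101 after AP20187. In footprints it ranged from 198 to 328 and from 792 to 1636 CPM, so every AP20187 library was above every vehicle library. Since all groups carried the transgene, this level does not show which libraries were treated.

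RNA of all 3 genes was lower in every AP20187 library than in any vehicle library. The share of all genes whose groups were apart in this way was not counted, so such separation is only described, here and below. Adh1 RNA was 7.37, 17.2 and 10.5 CPM in vehicle libraries 1, 2 and 3 and 1.12, 3.22 and 0.301 CPM in AP20187 libraries 1, 2 and 3. The groups did not overlap, vehicle library 2 was the highest, and AP20187 library 3 was the lowest. The fitted difference was -2.91 ± 0.74 (log2, SE), 7.53-fold lower, and the means were 11.7 ± 5.02 and 1.55 ± 1.51 CPM (SD, n = 3 each). It was -3.97 without AP20187 library 2 and -2.43 without AP20187 library 3. Aox3 RNA was 34.4, 24.1 and 42.8 CPM after vehicle and 3.87, 7.48 and 2.06 CPM after AP20187. Its groups were also apart, and the AP20187 libraries stood in the same order as for Adh1, with library 2 highest and library 3 lowest. The Aox3 difference was -2.92 ± 0.46 (log2, SE), 7.54-fold lower, from 33.8 ± 9.37 to 4.47 ± 2.76 CPM (SD, n = 3 each). Among the 7314 genes tested in RNA, Aox3 ranked 19 and Adh1 20 from the most negative log2 difference.

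Rdh10, the most abundant of the 3 in RNA, differed less and varied little after AP20187. It stood at 140, 123 and 216 CPM after vehicle and at 72.9, 78.3 and 68.3 CPM after AP20187. The vehicle libraries spread widely, with library 3 highest, and the AP20187 libraries lay close together. Its difference was -1.13 ± 0.21 (log2, SE), 2.18-fold lower, from 159.7 ± 49.4 to 73.1 ± 5.00 CPM (SD, n = 3 each), and it ranked 404 from the most negative. For scale, 12.4% of the genes tested rose and 13.9% fell in RNA with AP20187 by edgeR's quasi-likelihood test (Benjamini-Hochberg adjusted p under 0.05), a contrast that was known when the 3 genes were chosen, and the median difference over all genes was 0.01 (log2). The 1919 genes called became 717 without vehicle library 1, 538 without vehicle library 3 and 782 without AP20187 library 1.

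**Figure D1:**
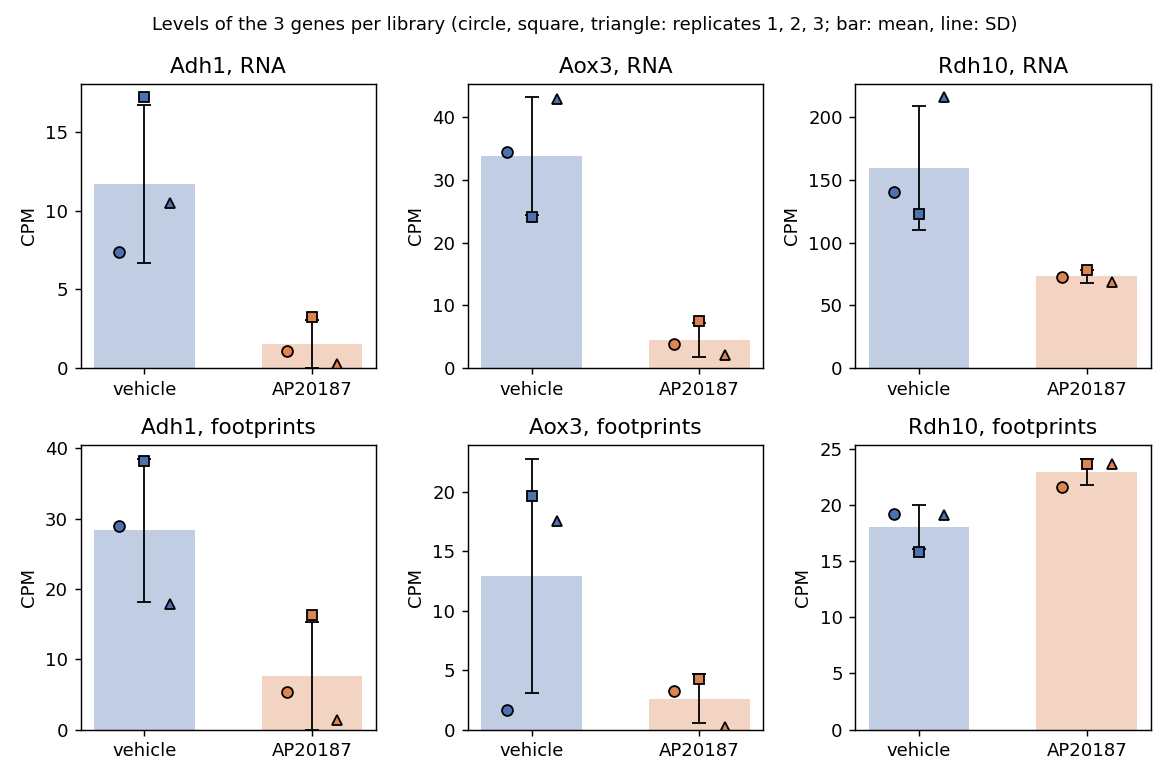
Level of Adh1, Aox3 and Rdh10 in CPM (vertical axis, from 0) after vehicle and AP20187, in RNA (top) and footprints (bottom); symbols are the 3 libraries of a group, bars the mean and lines the SD, which is clipped at 0. In RNA the AP20187 libraries of each gene lie below all vehicle libraries, while in footprints those of Rdh10 lie above them, at 21.6 to 23.6 against 15.8 to 19.2 CPM.

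Per kilobase of transcript, Rdh10 RNA was the highest of the 3 in every library. After vehicle, it held 34.2 to 60.2 CPM per kilobase, while Adh1 held 4.94 to 11.5 and Aox3 5.23 to 9.29, and these last 2 did not differ beyond their spread. After AP20187, Rdh10 held 19.0 to 21.8 CPM per kilobase, Adh1 0.202 to 2.16 and Aox3 0.448 to 1.62, again with Adh1 and Aox3 overlapping. Rdh10 RNA after AP20187 thus stayed above the vehicle levels of the other two.

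Footprints separated Rdh10 from the other genes. Adh1 footprints were 29.0, 38.2 and 17.8 CPM after vehicle (53, 70 and 68 counts) and 5.35, 16.3 and 1.33 CPM after AP20187 (57, 53 and 5 counts). All AP20187 values were below the vehicle values, though AP20187 library 2 came close to vehicle library 3. The Adh1 difference was -1.91 ± 0.72 (log2, SE), 3.75-fold lower, from 28.3 ± 10.2 to 7.65 ± 7.72 CPM (SD, n = 3 each), and -2.98 without AP20187 library 2. Aox3 footprints were 1.64, 19.6 and 17.5 CPM after vehicle (3, 36 and 67 counts) and 3.29, 4.29 and 0.266 CPM after AP20187 (35, 14 and 1 counts). Here the groups overlapped, since vehicle library 1 held only 3 counts, while the other vehicle libraries were above all AP20187 libraries. The Aox3 difference was -2.29 ± 0.99 (log2, SE), 4.90-fold lower, from 12.9 ± 9.84 to 2.62 ± 2.10 CPM (SD, n = 3 each), and -2.79 without vehicle library 1.

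Rdh10 footprints were 19.2, 15.8 and 19.1 CPM after vehicle (35, 29 and 73 counts) and 21.6, 23.6 and 23.6 CPM after AP20187 (230, 77 and 89 counts). All AP20187 libraries were above all vehicle libraries, the reverse of the RNA, but by a small step. The Rdh10 difference was 0.34 ± 0.37 (log2, SE), 1.27-fold, from 18.0 ± 1.92 to 22.9 ± 1.17 CPM (SD, n = 3 each), and so about as large as its own error. In footprints, 0.937% of 7041 genes tested rose and 1.6% fell by edgeR's test with AP20187, and the median difference over all genes was 0.03 (log2). The 179 genes called became 0 without vehicle library 1 or vehicle library 2, 3 without vehicle library 3 and 2 without AP20187 library 1. With the replicate number as a block, 715 genes passed, and the differences were -2.32 for Adh1, -2.12 for Aox3 and 0.35 for Rdh10 (log2).

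Per kilobase of coding sequence, the order in footprints was not that in RNA. After vehicle, Adh1 held 15.8 to 33.9 CPM per coding kilobase and Rdh10 15.5 to 18.7, which overlapped, with Aox3 below both at 0.410 to 4.90. After AP20187, Rdh10 led with 21.1 to 23.1 CPM per coding kilobase, followed by Adh1 with 1.18 to 14.5 and Aox3 with 0.0663 to 1.07.

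Within a pellet, footprint CPM divided by RNA CPM gives the occupancy of a transcript by ribosomes relative to other transcripts. Adh1 was high and Rdh10 low in this ratio, which is not scaled by length. For Adh1 the ratio was 3.94, 2.22 and 1.70 in vehicle pellets 1, 2 and 3 and 4.77, 5.04 and 4.41 in AP20187 pellets 1, 2 and 3. All AP20187 ratios were above the vehicle ratios, but that of AP20187 pellet 3 rests on 5 footprint counts, whose exact 95% Poisson interval spans 1.43 to 10.3. For Rdh10 the ratio was 0.136, 0.129 and 0.0886 after vehicle and 0.296, 0.302 and 0.346 after AP20187. These groups were also apart, with a narrow spread after AP20187. For Aox3 it was 0.0477, 0.815 and 0.410 after vehicle and 0.849, 0.574 and 0.129 after AP20187. The Aox3 groups overlapped, and its lowest ratio in each group rests on 3 counts (interval 0.00984 to 0.139) and on 1 count (interval 0.00326 to 0.717). Per kilobase (coding for footprints, transcript for RNA), Rdh10 means were 17.6 CPM in footprints and 44.5 in RNA after vehicle. They were 22.4 and 20.4 after AP20187, so on this scale Rdh10 footprints were then not below RNA. Adh1 means were 25.2 and 7.84 after vehicle and 6.80 and 1.04 after AP20187.

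**Figure D2:**
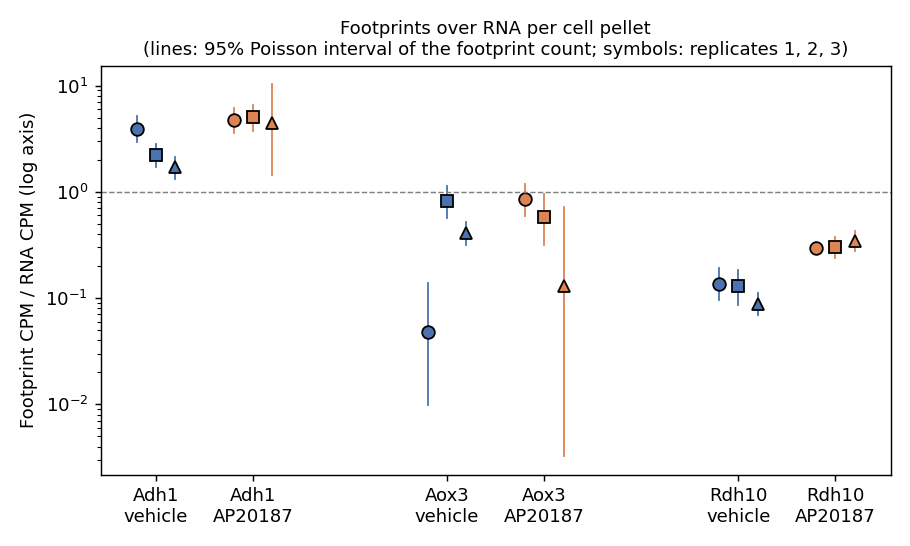
Footprint CPM over RNA CPM for each cell pellet (log axis) for Adh1, Aox3 and Rdh10 after vehicle (blue) and AP20187 (orange); circles, squares and triangles are pellets 1, 2 and 3, lines the exact 95% Poisson interval of the footprint count, and the dashed line a ratio of 1. Adh1 lies above 1 in all 6 pellets and Rdh10 below 1 in all 6, from 0.0886 to 0.346, with no scaling by length.

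The comparison of footprints with RNA inside a treatment group was tested over all genes with edgeR's quasi-likelihood test, also with no scaling by length. It uses the same RNA libraries as the response that was known when the 3 genes were chosen. Their p-values in it are therefore not independent of that choice and serve as a description. In vehicle pellets, 24.2% of 7306 genes tested were higher in footprints than in RNA and 25.7% lower. Adh1 was among the higher genes, by 1.34 ± 0.42 (log2, SE; 2.53-fold; edgeR adjusted p = 0.0261), and ranked 820 from the highest. It missed the threshold without vehicle pellet 1 (1.07, edgeR adjusted p = 0.117) and without vehicle pellet 2 (1.43, edgeR adjusted p = 0.0609). Rdh10 was among the lower genes, by -3.07 ± 0.28 (log2, SE; 8.39-fold lower; edgeR adjusted p = 4.27e-05), and ranked 236 from the lowest. Aox3, at -1.28 ± 0.59 (log2, SE), did not pass the threshold (edgeR adjusted p = 0.0993). So of the 3 genes, 1 was higher, 1 was lower and 1 did not pass, in a comparison in which 3648 of 7306 genes passed.

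In AP20187 pellets, 18% of 7301 genes tested were higher in footprints than in RNA and 20.5% lower, 2811 in all, against 792 without AP20187 pellet 1. Here too the p-values of the 3 genes are not independent of their choice, so passing the threshold is a description and not support. Rdh10 was again lower, by -1.59 ± 0.19 (log2, SE; 3.01-fold lower; edgeR adjusted p = 0.000537). Its highest edgeR adjusted p without each AP20187 pellet in turn was 0.0322. Adh1 stood at 2.34 ± 0.96 (log2, SE), rank 100 from the highest, and did not pass in this fit (edgeR adjusted p = 0.0857). With the pellet as a block it passed at the same value of 2.34 (edgeR adjusted p = 0.00115). Aox3 stood at -0.67 ± 0.73 (log2, SE) and did not pass (edgeR adjusted p = 0.494). Across 7122 genes, the coding share of the transcript and the vehicle ratio of footprints to RNA had a Spearman rho of -0.0221, given as a description only, since the genes share the same libraries. In coding share, 1019 genes were lower than Rdh10.

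The change in translational efficiency is the footprint response minus the RNA response of a gene. It was 1.42 ± 0.33 (log2, SE) for Rdh10, a ratio 2.67-fold higher after AP20187, and ranked 115 from the highest of 7315 genes. For Adh1 it was 0.95 ± 1.08 and for Aox3 0.57 ± 1.00 (log2, SE), both smaller than their own errors. The Aox3 value rested on vehicle pellet 1, without which it was 0.06. The Rdh10 value lay between 1.19 and 1.54 (log2) when each pellet was left out in turn. In the fit over all genes, edgeR called 0% in either direction, and the median was -0.08 (log2). An unadjusted edgeR p under 0.05 was reached by 350 genes, DESeq2 called 10 genes and limma voom 0.

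In these unsorted cells, fewer cells of a type and less RNA per cell cannot be told apart, so markers of the cell types in the gland were summed in each RNA library. Fibroblast markers (9 of 15 listed were counted, such as the collagen genes Col1a1 and Col1a2) summed to 3422 to 5921 CPM after vehicle and 1301 to 1751 after AP20187, and 7 of the 9 fell by edgeR's test. Adipocyte markers (6 of 14) summed to 314 to 541 and 93.2 to 168 CPM, and 3 of the 6 fell. Most of this sum was Fabp4 and Cd36, with vehicle means of 217 and 128 CPM, which both fell. Adipoq and Plin1 had vehicle means of only 1.34 and 1.32 CPM, and of these Plin1 fell and Adipoq did not pass. Lipe, with means of 45.9 CPM after vehicle and 57.4 after AP20187, did not pass. Endothelial markers (4 of 10) summed to 531 to 717 and 286 to 327 CPM, and all 4 fell. Of the epithelial markers, the luminal list (8 of 14, such as Krt8 and Krt18) went the other way and summed to 3739 to 4745 and 6405 to 8902 CPM, with 6 that rose and 1 that fell. The basal list (11 of 12, such as Krt5 and Krt14) had lower sums after AP20187, at 5420 to 6154 and 3277 to 4781 CPM, but its markers were split. Krt14, Acta2, Myh11, Mylk and Tagln fell (5), and Krt17 and Nt5e rose (2). The other 4 did not pass, among them Krt5, with means of 229 CPM after vehicle and 399 after AP20187. So the labelled epithelium was present in every library by its defining keratins, beside stromal and fat markers.

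Markers of blood, liver and nerve cells were also read. Macrophage markers (3 of 11) summed to 293 to 771 CPM after vehicle and 1083 to 1390 after AP20187, with 2 that rose and 0 that fell. Nearly all of this sum was Cd14, with means of 464 and 1242 CPM. Itgam also rose, from 9.10 to 18.3 CPM, while Cd68 was lower, at 23.1 and 17.4 CPM, and did not pass. Lymphoid cells were covered by Ptprc alone (1 of 11), at 28.0 to 82.8 and 21.7 to 39.8 CPM, and it did not pass. Hepatocyte markers (4 of 12), listed because liver is a known site of Adh1 and Aox3, summed to 648 to 885 and 167 to 293 CPM, and all 4 fell. Nearly all of this sum was from the fibrinogen genes Fgg and Fgb, with vehicle means of 675 and 79.7 CPM. Apoa1 and Fga had vehicle means of only 1.32 and 0.885 CPM, so the sum does not show that liver cells were present. Schwann cell markers (9 of 10) summed to 550 to 845 CPM after AP20187 against 423 to 524 after vehicle, with Sox10 that rose and 7 of the 9 that fell. No marker of these 9 lists was at 0 in any RNA library.

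Relative to the vehicle mean, the fibroblast sum stood at -1.56, -1.41 and -1.84 (log2) in AP20187 RNA libraries 1, 2 and 3 and the adipocyte sum at -1.63, -1.25 and -2.10. The endothelial sum stood at -1.01, -0.91 and -1.11 and the basal sum at -0.85, -0.41 and -0.30 (log2). Rdh10 stood at -1.13, -1.03 and -1.23, Aox3 at -3.12, -2.18 and -4.03 and Adh1 at -3.38, -1.86 and -5.28 (log2). In each of these libraries Rdh10 was less low than the fibroblast and adipocyte sums and slightly lower than the endothelial sum, and Adh1 and Aox3 were lower than all 9 sums. Inside both groups, Aox3 and Rdh10 followed the order that the fibroblast, adipocyte and endothelial sums shared, with vehicle library 3 highest and vehicle library 2 lowest, and AP20187 library 2 highest and AP20187 library 3 lowest. Adh1 followed the order of Ptprc, with vehicle library 2 highest and vehicle library 1 lowest and the same order after AP20187 as the others. The part of these cell types in the values of the 3 genes was not tested.

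**Figure D3:**
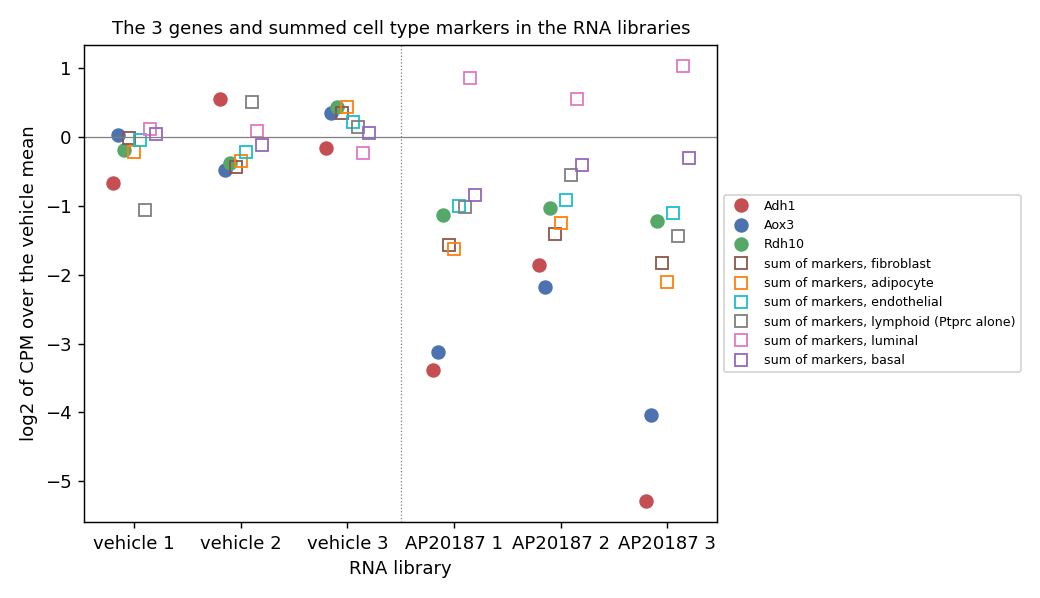
Level of Adh1, Aox3 and Rdh10 (filled circles) and summed levels of 6 marker lists (open squares) in each RNA library, as log2 of CPM over the vehicle mean (vertical axis). In AP20187 libraries the luminal sum lies above 0, the fibroblast and adipocyte sums between -1.25 and -2.10, the endothelial sum between -0.91 and -1.11, Rdh10 between -1.03 and -1.23, and Adh1 and Aox3 below all sums.

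The genes most like each member in RNA were taken as those with the smallest root mean square difference between log2 profiles over the 6 RNA libraries, each profile centred on its own mean. Aox3 was followed most closely by Pik3c2g, a phosphoinositide kinase gene (difference 0.125, from 11.4 CPM after vehicle to 1.45 after AP20187), then Zfp536 (0.173) and Nebl (0.238). Rdh10 was followed by Lcmt2 (0.0619, from 78.3 to 37.1 CPM), the integrin gene Itga5 (0.0958) and Ctps (0.104), the gene of CTP synthase. Adh1 had no neighbour so close: the nearest were Cd209b, a C-type lectin gene (0.437, from 32.7 to 4.85 CPM), Ppp1r1a (0.505) and Crym (0.527). Between the 3 genes, Adh1 and Aox3 differed by 0.73, Aox3 and Rdh10 by 1.11, and Adh1 and Rdh10 by 1.56 (log2). In this measure, 14 genes were closer to Adh1 than Aox3 was.

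The other genes of the retinoid pathway changed in both directions and mostly did not pass. The 6 lists of uptake, oxidation, binding, receptor and target genes, with Adh1, Aox3 and Rdh10 left out, named 89 genes, of which 38 were counted. In RNA, 4 of the 38 rose (10.5%, against 12.4% of all genes) and 8 fell (21.1%, against 13.9% of all genes), and 26 did not pass edgeR's test. Their median was -0.07 (log2), beside 0.01 over all genes. Without vehicle RNA library 1, 0 rose and 2 fell, without vehicle RNA library 3 also 0 and 2, without AP20187 RNA library 1 2 and 2, and without vehicle RNA library 2 7 and 8. In the same AP20187 libraries, fibroblast, adipocyte, endothelial, hepatocyte and basal marker sums were lower, and luminal, macrophage and Schwann cell sums were higher. The part of cell types in these counts was not tested.

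Of 7 counted uptake and storage genes, 1 rose in RNA (14.3%, against 12.4% of all genes) and 2 fell (28.6%, against 13.9%). Stra6, the membrane receptor that takes retinol from its carrier, fell from 170 ± 5.29 to 45.9 ± 33.4 CPM (SD, n = 3 each; -1.89 ± 0.46, log2, SE; edgeR adjusted p = 0.022). Lrp1, a receptor for lipoprotein remnants, fell by 0.91 ± 0.27 on the log2 scale (edgeR adjusted p = 0.0389). Scarb1, a lipoprotein receptor that also takes up carotenoids, rose by 0.59 ± 0.12 (log2; edgeR adjusted p = 0.0124). Of the 11 other retinol and retinal dehydrogenase or reductase genes, Dhrs7 rose by 1.09 ± 0.25 (log2; edgeR adjusted p = 0.0196), and the other 10 did not pass. The share that rose was 9.09%, against 12.4% of all genes. Adh5, the class III alcohol dehydrogenase, stood at 74.5 ± 21.2 and 101 ± 12.03 CPM (SD, n = 3 each), and Rdh11, a relative of Rdh10, at 26.9 ± 5.35 and 37.7 ± 7.39 CPM. The list's median was 0.44 (log2), so Adh1 and Rdh10 lay on the other side of 0 from it. Of 3 retinal oxidation genes, 1 fell (33.3%, against 13.9% of all genes). It was Aldh1a7, lower by 1.64 ± 0.37 on the log2 scale (edgeR adjusted p = 0.0182), at only 2.85 ± 0.25 CPM after vehicle. Aldh1a1 and Aldh1a3, which make retinoic acid, did not pass, with -0.77 ± 0.35 and 0.78 ± 0.30 (log2, SE).

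Of 9 listed genes for binding or clearing retinoic acid, 5 were counted, and all 5 passed in RNA, in opposite directions. In this list 2 rose (40%, against 12.4% of all genes) and 3 fell (60%, against 13.9%). The binding protein gene Crabp1 fell from 16.4 ± 1.61 to 5.11 ± 1.33 CPM (SD, n = 3 each; -1.68 ± 0.24, log2, SE; edgeR adjusted p = 0.0066). Its relative Crabp2 rose from 64.6 ± 22.7 to 138 ± 27.0 CPM (1.09 ± 0.26, log2, SE; edgeR adjusted p = 0.0197). Fabp5, which binds fatty acids and also retinoic acid, rose by 1.27 ± 0.29 (log2; edgeR adjusted p = 0.0183). The cytochrome P450 gene Cyp1b1 fell by 1.24 ± 0.33 (log2; edgeR adjusted p = 0.0284) and the glucuronosyltransferase gene Ugt1a6a by 1.78 ± 0.35 (log2; edgeR adjusted p = 0.0116), whose locus shares exons with other Ugt1a genes, so its counts are uncertain. Of 9 receptor and coregulator genes, 2 fell (22.2%, against 13.9% of all genes) and the other 7 did not pass. Rxrb, an RXR gene, fell by 0.39 ± 0.11 (log2; edgeR adjusted p = 0.039) and the coactivator gene Crebbp by 0.80 ± 0.25 (log2; edgeR adjusted p = 0.0482). Of 7 counted target genes of retinoic acid, Crabp2 rose (14.3%, against 12.4% of all genes), Stra6 fell (14.3%, against 13.9%) and 5 did not pass. Both shares were near those of all genes.

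Of the 12 named retinoid genes, Crabp1 and Ugt1a6a stayed past the threshold when each RNA library was left out in turn, with highest edgeR adjusted p of 0.0279 and 0.0472. Without vehicle RNA library 1 the other 10 missed it, with edgeR adjusted p from 0.0516 (Scarb1) to 0.168 (Crebbp), and without vehicle RNA library 3 likewise, from 0.0571 (Scarb1) to 0.148 (Rxrb). Without AP20187 RNA library 1, 8 of them missed it, from 0.0511 (Scarb1) to 0.119 (Rxrb), while Crabp2 and Fabp5 passed. Rxrb missed it without any of the 6 libraries, Crebbp without AP20187 library 2 (0.0761) or 3 (0.106), Cyp1b1 without AP20187 library 2 (0.0568) and Lrp1 without AP20187 library 3 (0.0661).

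**Figure D4:**
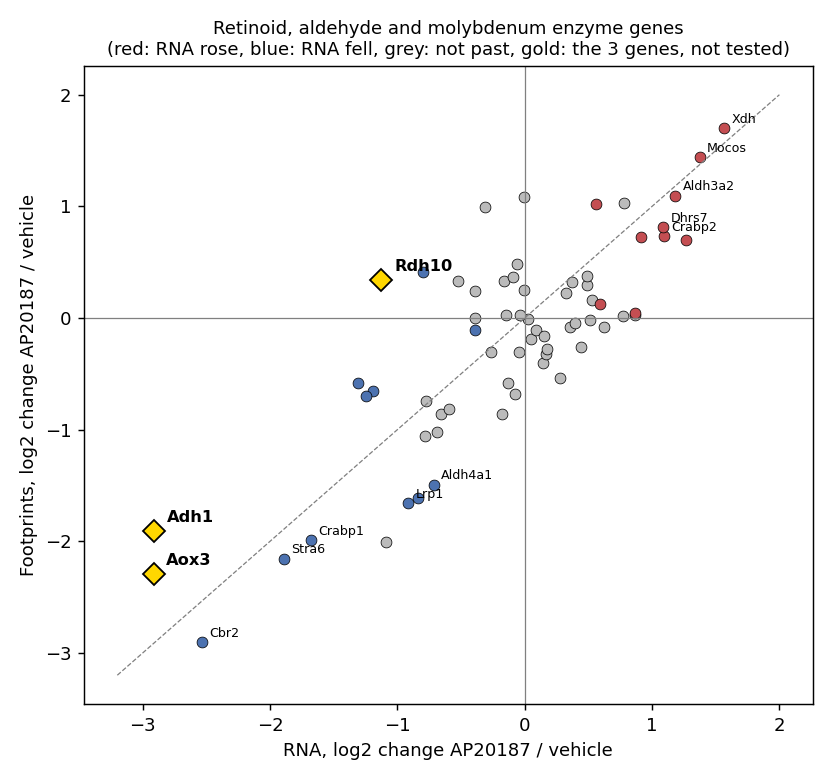
RNA difference (horizontal axis) and footprint difference (vertical axis) between AP20187 and vehicle, in log2, for Adh1, Aox3 and Rdh10 (gold diamonds, not tested) and the other counted genes of the retinoid, aldehyde and molybdenum lists (circles, red where RNA rose, blue where it fell, grey where it did not pass); the dashed line marks equal differences. Rdh10 lies at -1.13 in RNA and 0.34 in footprints, and Adh1 and Aox3 near -2.9 in RNA.

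In footprints, 34 of the 38 retinoid genes were tested, 0 rose (against 0.937% of all genes) and 2 fell (5.88%, against 1.6% of all genes). An unadjusted edgeR p under 0.05 was reached by 9, and DESeq2 called 1 that rose and 4 that fell. Stra6 footprints fell from 95.02 ± 9.69 to 21.4 ± 13.8 CPM (SD, n = 3 each; -2.16 ± 0.45, log2, SE; edgeR adjusted p = 0.0373). Crabp1 footprints fell from 63.5 ± 10.6 to 16.0 ± 9.62 CPM (-1.99 ± 0.45, log2, SE; edgeR adjusted p = 0.0441). Both were lower in RNA as well, unlike Rdh10, whose footprints were not lower. With the replicate number as a block, 2 retinoid genes rose, Dhrs7 (0.86, edgeR adjusted p = 0.0214) and Crabp2 (0.73, edgeR adjusted p = 0.0264), and 4 fell, among them Lrp1 (-1.58, edgeR adjusted p = 0.0189). Without footprint vehicle library 1, 2 or 3 or AP20187 library 1, neither Stra6 nor Crabp1 passed: edgeR adjusted p lay between 0.0914 and 0.132 for Stra6 and between 0.0902 and 0.173 for Crabp1. Crabp1 also missed the threshold without AP20187 library 3 (0.051). In translational efficiency, edgeR called 0 of the 38, 3 had an unadjusted p under 0.05, and the median was -0.29 (log2).

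Of 24 counted genes for other alcohol and aldehyde enzymes, which do not centre on retinoids, 3 rose in RNA (12.5%, against 12.4% of all genes), 6 fell (25%, against 13.9%) and 15 did not pass, with a median of 0.00 (log2) beside 0.01 over all genes. The share that rose was that of all genes. Aldh3a2, which oxidises fatty aldehydes, rose by 1.18 ± 0.26 (log2; edgeR adjusted p = 0.0161) and Aldh18a1, which acts in proline synthesis, by 0.91 ± 0.18 (log2; edgeR adjusted p = 0.0116). The third to rise was Aldh1l2 (0.56 ± 0.17, log2, SE), named after its value was seen. Cbr2, a carbonyl reductase gene, fell from 36.2 ± 2.53 to 6.24 ± 2.54 CPM (SD, n = 3 each; -2.54 ± 0.29, log2, SE; edgeR adjusted p = 0.0059). Aldh3b2 fell by 1.31 ± 0.31 (log2; edgeR adjusted p = 0.0209) and Aldh4a1, of proline breakdown, by 0.71 ± 0.17 (log2; edgeR adjusted p = 0.0198). Without vehicle RNA library 1 or vehicle RNA library 3, Aldh3a2 (edgeR adjusted p 0.0534 and 0.0704), Aldh3b2 (0.0631 and 0.0583) and Aldh4a1 (0.0974 and 0.0507) missed the threshold. Aldh18a1 missed it without vehicle RNA library 3 (edgeR adjusted p = 0.0511), and Aldh3b2 (0.0719) and Aldh4a1 (0.081) also without AP20187 RNA library 1. In footprints, 0 of 23 tested rose and 2 fell (8.7%, against 1.6% of all genes): Cbr2, from 99.4 ± 25.0 to 13.5 ± 5.61 CPM (SD, n = 3 each; -2.90 ± 0.37, log2, SE; edgeR adjusted p = 0.0193), and Dcxr (-1.61 ± 0.30, log2, SE), named after its value was seen. With the replicate number as a block, Aldh3a2 (1.12, edgeR adjusted p = 0.00639) rose and Aldh4a1 (-1.42, edgeR adjusted p = 0.0152) fell in footprints as well. Cbr2 missed the threshold in footprints without vehicle library 1, 2 or 3 or AP20187 library 1 (edgeR adjusted p from 0.0525 to 0.064).

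Aldehyde oxidases need a molybdenum cofactor, and of the 7 counted genes for molybdenum enzymes or that cofactor, 3 rose (42.9%, against 12.4% of all genes) and 0 fell (against 13.9%) in RNA, with a median of 0.03 (log2) beside 0.01 over all genes. Xdh, xanthine dehydrogenase, which is related to Aox3 and also serves in milk fat secretion, rose from 254 ± 36.5 to 752 ± 189 CPM (SD, n = 3 each; 1.57 ± 0.21, log2, SE; edgeR adjusted p = 0.00625). Mocos, whose enzyme adds the sulphur that aldehyde oxidases and xanthine dehydrogenase need, rose from 15.8 ± 2.84 to 40.9 ± 2.67 CPM (1.37 ± 0.18, log2, SE; edgeR adjusted p = 0.0059). Mocs1, of the first step of cofactor synthesis, rose by 0.87 ± 0.18 (log2; edgeR adjusted p = 0.0131), but missed the threshold without vehicle RNA library 3 (0.0611) or AP20187 RNA library 1 (0.0506). Aox3 was thus lower in the libraries in which its relative Xdh was higher. In footprints, Xdh rose from 248 ± 38.3 to 806 ± 312 CPM (1.70 ± 0.32, log2, SE; edgeR adjusted p = 0.0244), the 1 gene of 7 to pass (14.3%, against 0.937% of all genes that rose). It missed the threshold without footprint vehicle library 1, 2 or 3 or AP20187 library 1 (edgeR adjusted p from 0.0837 to 0.0949). With the replicate number as a block, Mocos footprints rose as well (1.45, edgeR adjusted p = 0.0208).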

How the data were processed

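RNA and ribosome footprints were sequenced in 6 libraries each. The authors deposited raw read counts per gene symbol for 7318 genes, without normalization. Not given in the sources used here are the choice of these genes, the strand setting and the part of a gene over which footprints were counted. The submitters' processing notes name build mm10 and the tools HTSeq, Bowtie2, STAR, cutadapt and bcl2fastq 1.8.3. Groups and replicate numbers came from the titles.

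From the deposited counts, CPM were computed with TMM-scaled library sizes, per assay. Genes that passed filterByExpr (minimum count 10) were tested in R 4.3.3 with edgeR 4.0.16 (quasi-likelihood F test, 2-sided, Benjamini-Hochberg adjusted over all genes tested, threshold 0.05), with treatment, assay or their interaction as terms. The 3 genes passed this filter in all 5 fits. SE came from log2 change and F. The procedure was tested on simulated data. Likeness used log2(CPM + 0.01). Alternatives were DESeq2 1.42.0, its size factors, limma 3.58.1 (voom), no filter, a replicate block and leaving out each library or pellet.

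The 3 genes and the 17 lists were chosen with earlier results of these data known. The genes named were Adh1, Aox3 and Rdh10, up to 5 genes past the threshold per pathway list by smallest RNA p, and the 3 nearest profiles per gene. Gene models were those of GRCm38 (GENCODE). Promoters came from RefSeq.

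Replicate numbers were checked for pairing by correlating deviations from the group means across genes. In footprints, vehicle and AP20187 libraries of the same number correlated at 0.220, 0.283 and 0.408, so the replicate block is given beside that response. RNA and footprints of a number were taken as from the same pellet (0.040 to 0.354 after vehicle and 0.375 to 0.535 after AP20187). After vehicle, not every library correlated best with its own number. RNA 1 stood at 0.045 with footprints 2 and 0.040 with footprints 1, and RNA 2 at 0.175 with footprints 1 and 0.100 with footprints 2. The ratios of single vehicle pellets rest on this match by number. In RNA, vehicle and AP20187 libraries of the same number did not correlate in every pair.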

Additional observations from a re-analysis of the deposited data

Results flagged for a closer look

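Rdh10 RNA was lower in all 3 AP20187 libraries than in any vehicle library, while its footprints lay above the vehicle libraries in all 3, by 0.34 ± 0.37 (log2, SE), a step no larger than its error. The gene was flagged for this separation in opposite directions, and the share of all genes so separated was not counted. The footprint response minus the RNA response was 1.42 (log2). The difference was not tested for this gene, which was chosen with these responses known, and in the fit over all 7315 genes edgeR's interaction test called 0 genes.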

How the results depend on the processing

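Every log2 difference of Adh1, Aox3 and Rdh10 kept its sign under all alternatives run, and Rdh10 stayed past the threshold in both comparisons of footprints with RNA. As the 3 genes were chosen with their RNA response known, such calls are a description and not support. Leaving out each library or pellet in turn gave RNA differences of -3.97 to -2.43 for Adh1, -3.48 to -2.57 for Aox3 and -1.26 to -0.85 for Rdh10, footprint differences of -2.98 to -1.43, -2.79 to -1.79 and 0.27 to 0.39, and efficiency changes of 0.76 to 1.22, 0.06 to 1.10 and 1.19 to 1.54 (log2). Adh1 was the exception for calls. Its vehicle ratio of footprints to RNA was 1.30 with limma voom (adjusted p = 0.158) and 1.07 to 1.53 when each pellet was left out. Its AP20187 ratio was 2.42 with DESeq2 (adjusted p = 0.0148), 2.34 with the replicate block (edgeR adjusted p = 0.00115) and 2.35 to 2.41 when each pellet was left out.

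With single RNA libraries left out, 538 to 2214 genes passed in place of 1919 (717 without vehicle 1, 538 without vehicle 3 and 782 without AP20187 1), and 0 to 7 retinoid genes rose and 2 to 8 fell. DESeq2 called 7 retinoid genes that rose. In footprints, 528 genes passed with DESeq2 and 715 with the replicate block in place of 179, with 1 and 2 retinoid genes that rose and 4 that fell in each. With single footprint libraries left out, 0 to 186 genes passed (0 without vehicle 1 or vehicle 2, 3 without vehicle 3 and 2 without AP20187 1), and 0 to 2 retinoid genes fell. In translational efficiency DESeq2 called 10 genes. Leaving out AP20187 pellets gave 792 to 2934 genes with footprints unlike RNA, in place of 2811, the lowest without pellet 1. Vehicle pellets gave 2664 to 3163 in place of 3648. Footprint differences that changed sign, none past the threshold, were Fabp5 (-0.072 with voom, -1.21 to 1.60 with libraries left out), Rxrb (-0.33 to 0.11, and 0.01 without AP20187 1), Mocs1 (-0.10 to 0.22, and -0.09 without vehicle 3) and Crebbp (-0.24 to 0.82). Except for the fewer libraries in a fit, the cause was not tested.

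RNA libraries of vehicle and AP20187 shared only a number (same-number correlations 0.197, -0.056 and -0.048, and not every library correlated best with its own number). The replicate block in RNA left 1281 calls. Of the 20 named genes, Lrp1, Crabp2, Rxrb, Crebbp, Aldh3a2 and Aldh4a1 no longer passed in RNA with the block (edgeR adjusted p from 0.0533 to 0.0868). Beyond the block values given beside the footprint results and for Adh1 after AP20187, the block changed no other call among the named genes. Footprint counts of 1 to 5 limit Aox3 in vehicle library 1 and AP20187 library 3 and Adh1 in AP20187 library 3. Only 38 of 89 retinoid genes were counted.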
